A study of Mus musculus with 4 samples.

Results

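The promoters described here belong to the contractile program of smooth muscle, the genes for actin, myosin, their regulators and the cytoskeletal proteins that anchor them. The genes were listed by name and not by any measured value, although earlier results of these data were already known. Of the 35 listed genes, 34 were among the 26354 promoters of the table. Fhl1 was not analysed here. The tissue was the aortic media of male C57Bl/6J mice, fixed ex vivo for H3K9me2 ChIP-seq after adipose tissue and the adventitial and endothelial layers had been dissected away. The groups compared were 2 H3K9me2 ChIP libraries and 2 input libraries of sheared chromatin that was not immunoprecipitated, with 1 of each in experiment v102 and in experiment v134. No transgene, mutation or treatment is named for these mice, and their age and the number of aortas per experiment are not given in the sources used here. Reads were counted within 1 kb of each transcription start site. The files used here hold no RNA values, so the smooth muscle identity of the tissue could not be checked against marker expression.

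In differentiated vascular smooth muscle cells (VSMCs), sliding of actin thin filaments on myosin, switched on by phosphorylation of the myosin light chain, holds vessel tone. Expression of genes such as Myh11 marks the contractile state, but not every gene of this set is particular to it. Many of the genes are bound by serum response factor (SRF) and its coactivator myocardin at a sequence called the CArG box, which is CC, then 6 bases that are A or T, then GG. The histone mark H3K9me2 is written by methyltransferases of the EHMT family, goes along with silent chromatin and is low at most active promoters.

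H3K9me2 was low at most contractile promoters. The 34 promoters together held 187 ChIP reads (65 in v102 and 122 in v134) over 1947 input reads (688 and 1259). At the average ratio of the whole table, 447 ChIP reads would have been counted over the same input. This average, 0.230 on summed reads, lies above the ratio of the median promoter, 0.162. It includes mitochondrial promoters, which held 14.3% and 7.53% of the input reads but 0.200% and 0.175% of the ChIP reads. Relative to all other promoters, the pooled ratio of ChIP to input was 0.360 in experiment v102 and 0.457 in experiment v134, a mean of 0.409 ± 0.069 (SD, n = 2). The promoter of Smtn, which encodes the actin-binding protein smoothelin, held 26.2% of these ChIP reads by itself, and without it the pooled ratio was 0.316.

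For ranks, ChIP and input reads were scaled to library totals over the promoters, a pseudocount of 1 read was added, and the log2 ratios of both experiments were averaged. Percentiles run from the lowest to the highest of the 26354 promoters. The median contractile promoter lay at percentile 13.7, and 21 of the 34 (61.8%) were in the lowest quartile, which by construction holds 25% of all promoters. Only Smtn was in the highest quartile. In each experiment taken alone the median was percentile 19.1. Under percentile 50 in both experiments were 27 of 34 promoters (79.4%), compared with 38.1% of the table. Smtn, Des and Nexn were above percentile 50 in both, and Actg2, Pln, Ldb3 and Pde5a were on different sides in the 2 experiments.

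**Figure D1:**
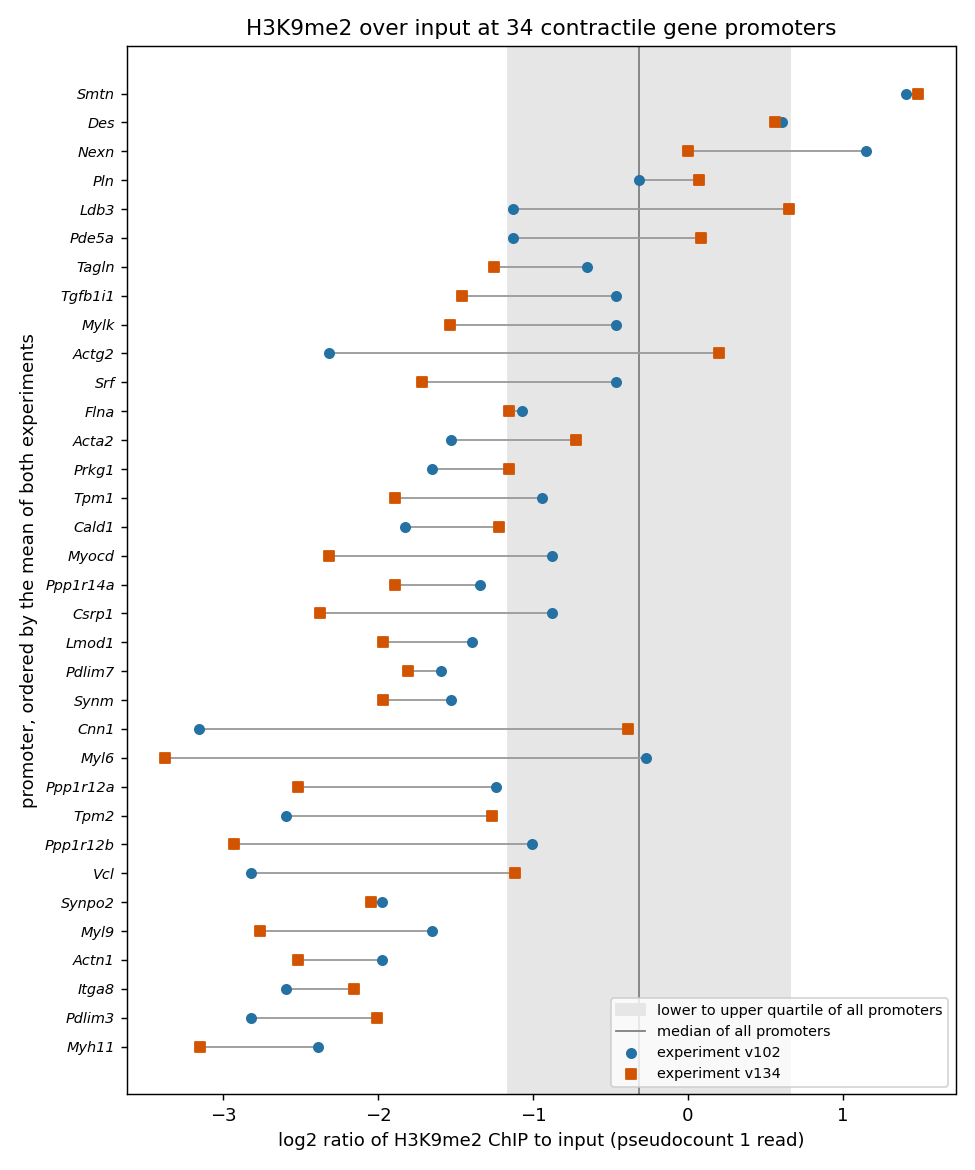
Log2 ratio of H3K9me2 ChIP to input reads (x axis, pseudocount 1 read) at each of the 34 contractile promoters (y axis), with circles for experiment v102 and squares for experiment v134. The grey band runs from the 25th to the 75th percentile of all promoters (-1.16 to 0.66) and the line marks their median (-0.31). Band and line are for the mean log2 ratio of both experiments, whereas each point is from a single experiment. Most promoters lie to the left of the line in both experiments, and Smtn lies to the right of the band in both.

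Counts at single promoters were small. A contractile promoter had 27 to 80 input reads summed over both experiments (median 57, the same as for all promoters) and 0 to 49 ChIP reads (median 3, compared with 9 for all promoters). At most 3 ChIP reads were counted at 19 of the 34 promoters (55.9%), compared with 19.0% of the table. No ChIP read was counted at 11 of 34 in experiment v102 (32.4%, compared with 9.05% of the table) and at 6 of 34 in experiment v134 (17.6%, compared with 7.67%). The order of the contractile promoters differed between the experiments, with a Spearman correlation of 0.18 across the 34, compared with 0.69 across all promoters. These are descriptions across promoters that share the same 4 libraries. In bulk chromatin, a lower level of the mark in every cell and its absence from a share of the cells cannot be told apart.

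ChIP counts were tested against input counts at every promoter with edgeR's quasi-likelihood test, and p-values were adjusted over all 26354 promoters (Benjamini-Hochberg). A promoter called above or below input, at an adjusted p under 0.05, departed in that direction from the reference level that edgeR's TMM scaling sets. This level is not that of the typical promoter, since 58.7% of all promoters had a fitted value under it. The test called 18 of the 34 contractile promoters below input (52.9%), compared with 17.0% of all promoters tested, and 1 above, Smtn, compared with 18.6%. The experiments are paired, because each ChIP has its own input, and a fit with the experiment as a block called 6 below (17.6%), compared with 8.30% of all promoters. These were Actn1, Itga8, Myh11, Myl9, Pdlim3 and Synpo2, all of which were among the 18. Smtn remained above with the block, as did 15.8% of all promoters. The median fitted log2 fold change of ChIP over input was -2.00 at contractile promoters and -0.35 over all promoters.

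**Figure D2:**
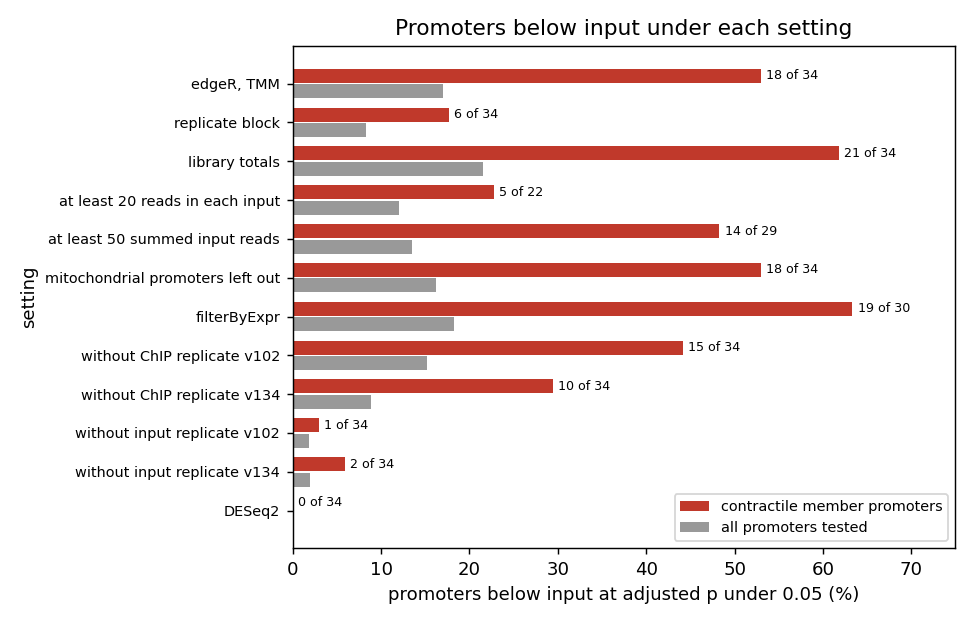
Percentage of promoters called below input at an adjusted p under 0.05 (x axis) under each setting of the test (y axis), for contractile promoters (red) and for all promoters tested (grey). The number beside each red bar counts contractile promoters called out of those tested, from 21 of 34 with library totals to 0 of 34 by DESeq2. DESeq2 left its adjusted p undefined at all but 1 of the 34.

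Among the edgeR fits, the number called changed most when an input library was left out. Leaving out the input library of experiment v102 reduced the calls below input to 1 (Myh11), and leaving out that of experiment v134 reduced them to 2 (Actn1 and Pdlim3), while the share of all promoters called below dropped to 1.88% and 1.95%. Without the ChIP library of v134, 10 were called below (8.83% of all promoters) and Smtn was no longer called above (12.9%), and without that of v102, 15 were called below (15.2%). Requiring 20 reads in each input left 22 contractile promoters, of which 5 were below (12% of all), and requiring 50 summed input reads left 29, of which 14 were below (13.5%). Library totals in place of TMM scaling gave 21 (21.5%), edgeR's own count filter 19 of 30 (18.3%), and leaving out mitochondrial promoters 18 (16.2%). Smtn stayed above input without either input library, as did 11.5% and 11.7% of all promoters. DESeq2 called 0 of 34 below input by its adjusted p, which it left undefined at all but 1 of them, and 8 at an unadjusted p under 0.05, compared with 22 by edgeR's unadjusted p. Over all promoters these unadjusted shares were 9.47% by DESeq2 and 24.8% by edgeR. It left the adjusted p undefined at most of the table, and called 0.102% of all promoters below and 11.6% above.

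The promoters of 5 genes with matches to the CArG box are printed to show the box in its setting at promoters that ranked differently in H3K9me2. The 5 were chosen after the values were seen, since none of the 5 smooth muscle marker genes with a promoter in the RefSeq set has an exact box there. Each is the 250 bases before the RefSeq start in GRCm38.p6, written in the direction of the gene, with CArG boxes in capitals. A CArG-like box has a C or G at 1 of the 6 middle bases.
Acta2: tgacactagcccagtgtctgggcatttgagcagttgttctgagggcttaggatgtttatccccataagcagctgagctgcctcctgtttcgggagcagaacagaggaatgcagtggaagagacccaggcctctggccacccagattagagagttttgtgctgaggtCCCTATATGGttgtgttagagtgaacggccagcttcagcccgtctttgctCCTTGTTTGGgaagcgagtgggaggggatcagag
Myl9: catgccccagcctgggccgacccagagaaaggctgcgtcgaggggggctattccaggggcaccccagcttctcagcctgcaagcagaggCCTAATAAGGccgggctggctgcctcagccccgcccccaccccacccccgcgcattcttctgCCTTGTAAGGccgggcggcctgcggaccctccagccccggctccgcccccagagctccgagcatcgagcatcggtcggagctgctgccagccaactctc
Vcl: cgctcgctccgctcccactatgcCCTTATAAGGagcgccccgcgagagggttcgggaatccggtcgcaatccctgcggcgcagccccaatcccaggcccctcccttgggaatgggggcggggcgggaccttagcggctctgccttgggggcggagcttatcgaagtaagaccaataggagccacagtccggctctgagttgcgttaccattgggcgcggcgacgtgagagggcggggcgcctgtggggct
Srf: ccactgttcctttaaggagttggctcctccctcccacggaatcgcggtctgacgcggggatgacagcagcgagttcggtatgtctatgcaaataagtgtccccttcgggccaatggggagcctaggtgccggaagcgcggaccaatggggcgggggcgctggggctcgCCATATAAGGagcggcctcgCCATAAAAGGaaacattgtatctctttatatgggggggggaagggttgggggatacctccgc
Ldb3: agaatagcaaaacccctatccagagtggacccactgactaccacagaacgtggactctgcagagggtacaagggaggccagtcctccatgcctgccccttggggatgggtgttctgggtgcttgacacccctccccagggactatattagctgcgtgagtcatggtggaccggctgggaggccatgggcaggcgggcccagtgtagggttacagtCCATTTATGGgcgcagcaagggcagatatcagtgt

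The Acta2 stretch (chr19:34255374-34255623, minus strand) holds CArG-like boxes that begin 84 and 34 bases before the start. Myl9 (chr2:156775214-156775463, plus strand) has an exact box at 161 and a CArG-like box at 99 bases. Vcl (chr14:20929148-20929397, plus strand) has an exact box at 227 bases, Srf (chr17:46556163-46556412, minus strand) has exact boxes at 82 and 62, and Ldb3 (chr14:34588682-34588931, minus strand) has an exact box at 35. In H3K9me2 these promoters ranged from percentile 4.20 at Myl9 and 7.03 at Vcl, through 25.9 at Acta2 and 27.1 at Srf, to 52.2 at Ldb3. The RefSeq set matched 28 of the 34 genes. In its windows of 250 bases before to 50 after the start, 6 of the 34 promoters of these genes (17.6%) held an exact box, compared with 1.63% of all 32851 promoters, and 4 (11.8%) held a CArG-like box, compared with 8.50%. Myl6, with an exact box, and Pdlim3 and Synm, with CArG-like boxes, were not printed and lay at percentiles 9.52, 2.33 and 10.9. The box reads as the same pattern on both strands.

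Thin filament genes ran from percentile 7.74 at Tpm2 to 88.7 at Smtn, and the other 7 lay no higher than 31.1. The group comprised 9 genes for smooth muscle actins, tropomyosins and proteins bound to the filament. It had 3 promoters below input (Tpm2, Cald1 and Lmod1), 1 above (Smtn) and 5 that were not called. With the block, 0 were below and 1 above. Over all promoters, 17.0% were below and 18.6% above, or 8.30% and 15.8% with the block. These shares apply to each group that follows. Smtn had 15 and 34 ChIP reads (v102 and v134, the order used throughout) over 22 and 58 input reads. Its ratio of summed reads was 0.612 (0.430 to 0.872, a Wilson interval at 95% that reflects counting error alone), and both experiments were above the 75th percentile of the table. The log2 fold change of ChIP over input was 1.57 ± 0.36 (SE) with an adjusted p of 0.000169 by edgeR's quasi-likelihood test. The window taken here for Smtn (chr11:3539612-3541612, minus strand) is centred on the gene's outermost annotated start, and the RefSeq start lies 1320 bases from it. The start that the authors used is not given in the sources used here, so which Smtn promoter the reads describe was not established.

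Acta2, the main smooth muscle actin gene, had 0 and 4 ChIP reads over 10 and 38 input reads, with a ratio of 0.0833 (0.0313 to 0.222) and an adjusted p of 0.179 by edgeR's quasi-likelihood test. Tagln, which encodes the actin-binding protein SM22, had 2 and 3 ChIP reads over 17 and 44 input reads, with a ratio of 0.0820 (0.0339 to 0.198) and an adjusted p of 0.120 by the same edgeR test. Both ratios were under the table median of 0.162, but their intervals included it. Cnn1, the gene of the thin filament protein calponin, had 0 and 5 ChIP reads over 33 and 36 input reads, and the experiments disagreed, at percentiles 0.239 and 49.8. Its adjusted p by edgeR was 0.0529. Actg2, the gamma smooth muscle actin gene, disagreed in the same way, with 0 ChIP reads over 18 input reads at percentile 5.75 in experiment v102 and 9 over 40 at percentile 65.1 in experiment v134. Lmod1, which encodes an actin filament nucleator of smooth muscle, had 1 ChIP read in each experiment over 19 and 36 input reads, a log2 fold change of -2.46 ± 0.90 (SE) and an adjusted p of 0.0227, or 0.0631 with the block, by edgeR. The tropomyosin genes had low counts, with 0 and 2 ChIP reads at Tpm2 (ratio 0.0364) and 2 and 1 at Tpm1 (ratio 0.0545). Only Tpm2 was called, with an adjusted p of 0.0214 by edgeR, or 0.0693 with the block. Cald1, the caldesmon gene, had 1 and 3 ChIP reads over 26 and 43 input reads.

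Genes of the myosin motor and its phosphorylation switch had the lowest median percentile of the groups, 8.55, and 6 of 7 promoters were below input, or 2 with the block. The group was lowest in experiment v134, at 4.91, but not in experiment v102. There its median was 20.3, compared with 14.5 for the thin filament genes and 14.5 for the intermediate filament group. Myh11, the smooth muscle myosin heavy chain and the most specific marker of the lineage, was the lowest of all contractile promoters. It had no ChIP read in either experiment over 19 and 41 input reads, where the table average would give 13.7 reads. With a floor of 3 reads over both libraries together, its ratio was at least 4.55-fold lower than the table average. Its adjusted p by edgeR's quasi-likelihood test was 0.000485, or 0.0093 with the block. No ChIP read in either experiment was counted at 1.98% of all promoters.

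Myl9, the regulatory light chain that is phosphorylated on contraction, had 1 and 0 ChIP reads over 23 and 31 input reads, with an adjusted p of 0.00735, or 0.0345 with the block, by edgeR. The other light chain gene, Myl6, had 4 and 0 ChIP reads over 22 and 48 input reads and was at percentiles 45.1 and 0.545 in the 2 experiments. The 3 genes of myosin phosphatase and its inhibitor were all low. Ppp1r12a, the targeting subunit, had 1 and 0 ChIP reads, its relative Ppp1r12b had 2 and 0, and Ppp1r14a, which encodes the inhibitor CPI-17, had 2 and 1. Mylk, the light chain kinase gene, was the member of the group that was not called, with 3 and 2 ChIP reads over 20 and 40 input reads and an adjusted p of 0.124 by edgeR. Its RefSeq start lies 39740 bases from the gene start used here, as the gene has several promoters. Over the whole group, 13 ChIP reads were counted over 151 input reads in experiment v102 and 3 over 255 in experiment v134, so the pooled ratio relative to other promoters was 0.328 and 0.0555. The size of the deficit thus differed between the experiments, while its direction did not.

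Intermediate filament, Z-disc-like and adhesion genes had 8 of 13 promoters below input, and 4 with the block, at a median percentile of 11.8. Pdlim3, a PDZ and LIM domain protein that binds alpha-actinin (window chr8:45884461-45886461), had 0 and 1 ChIP reads over 26 and 37 input reads. Itga8, the integrin alpha 8 chain of smooth muscle adhesions (chr2:12300922-12302922), had 0 and 1 ChIP reads over 22 and 41 input reads. Actn1, the alpha-actinin that crosslinks actin at dense bodies (chr12:80259371-80261371), had 1 and 0 ChIP reads over 29 and 26 input reads. These were the next lowest after Myh11, with log2 fold changes of -3.62 ± 1.02, -3.60 ± 1.02 and -3.45 ± 1.05 (SE), and each stood on 1 ChIP read in all. Their adjusted p by edgeR was 0.00262, 0.00285 and 0.00593, or 0.0201, 0.0213 and 0.0289 with the block. The Itga8 window as placed here overlaps that of E030013I19Rik, so the 2 promoters may share reads. Synpo2, an actin-bundling protein, was also called in both fits, with 0 and 1 ChIP reads over 14 and 38 input reads.

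The other called members of this group were Pdlim7, Synm, Csrp1 and Vcl, with 2 or 3 ChIP reads each over both experiments. Synm encodes the intermediate filament protein synemin, Csrp1 a LIM protein of the cytoskeleton and Vcl the adhesion protein vinculin. Flna, the X-linked gene of the actin crosslinker filamin A, had 0 and 1 ChIP reads over 7 and 20 input reads, the fewest input reads of all members, and its interval from 0.0064 to 0.215 spanned the table median. In this male tissue the X-linked promoters had a median of 30 input reads, compared with 58 on autosomes. Tgfb1i1, the focal adhesion protein Hic-5, had 3 and 2 ChIP reads over 20 and 38 input reads and was not called.

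The same group held 3 of the 5 highest members. Des, the muscle intermediate filament desmin (chr1:75359329-75361329), had 5 and 9 ChIP reads over 14 and 31 input reads, with log2 ratios of 0.61 and 0.56 and a percentile of 73.4. Nexn, the actin-binding Z-disc protein nexilin, had 6 ChIP reads in each experiment over 11 and 32 input reads, at percentile 73.2. Ldb3, a Z-disc protein best known from striated muscle, had 2 and 10 ChIP reads over 24 and 32 input reads and did not rank alike in the experiments, at percentiles 22.8 and 75.2. None of these was called by edgeR, with adjusted p of 0.399 at Des, 0.557 at Nexn and 0.986 at Ldb3. Against the 75th percentile of the deposited ratio, 0.343, Smtn at 0.612 was inside and Des at 0.311 and Nexn at 0.279 were the nearest outside.

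Of the transcription genes, 1 of 2 was below input, or 0 with the block. Myocd, the coactivator myocardin, had 2 and 1 ChIP reads over 20 and 46 input reads, with a log2 fold change of -2.14 ± 0.77 (SE) and an adjusted p of 0.0213, or 0.0651 with the block, by edgeR. Srf had 3 and 1 ChIP reads over 20 and 30 input reads and an adjusted p of 0.144 by edgeR, at percentile 27.1. Among the 22299 promoters with a placed window it was at 56.0, once their trend with GC content was removed. The 3 calcium and cyclic GMP genes had no call in either direction and a median percentile of 43.9. Pln, whose product phospholamban restrains the calcium pump of the sarcoplasmic reticulum, had 3 and 7 ChIP reads over 18 and 35 input reads. Pde5a, the phosphodiesterase that degrades cyclic GMP, had 2 and 8 over 24 and 39. Prkg1, the cyclic GMP-dependent kinase, was lower, with 0 and 3 over 11 and 41. The 8 genes taken as smooth muscle markers were Acta2, Myh11, Tagln, Cnn1, Smtn, Lmod1, Myocd and Des. Of these, 3 were below input, 1 was above and 4 were not called, and their median percentile was 19.9. With the block, 1 was below and 1 above. Over all promoters, 17.0% were below and 18.6% above, or 8.30% and 15.8% with the block.

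Sequence composition moved with H3K9me2 across the table, so it is given beside the ranks. Over the 22299 windows outside the mitochondrial genome that could be placed, the Spearman correlation of GC content with the mean log2 ratio was -0.55. The contractile windows had a median GC content of 53.4%, from 35.4% at Pln to 64.2% at Ppp1r12a, compared with 50.9% for all windows. Their median number of CpG dinucleotides was 65.5, compared with 56. Among the 34 the correlation with GC content was -0.09. The trend over these windows was then removed, and promoters were ranked among the 22299 and not among all 26354. The median percentile was 23.5 in place of 13.7, and 20 promoters were under percentile 25, compared with 21 before. How much of the shift comes from the smaller set was not tested. Pln, the most AT-rich window, moved down to percentile 7.42, and Acta2 moved down to 7.84. Srf moved up to 56.0, Des to 95.6 and Nexn to 93.4, which put 3 members in the highest quartile, while Smtn was at 95.7.

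**Figure D3:**
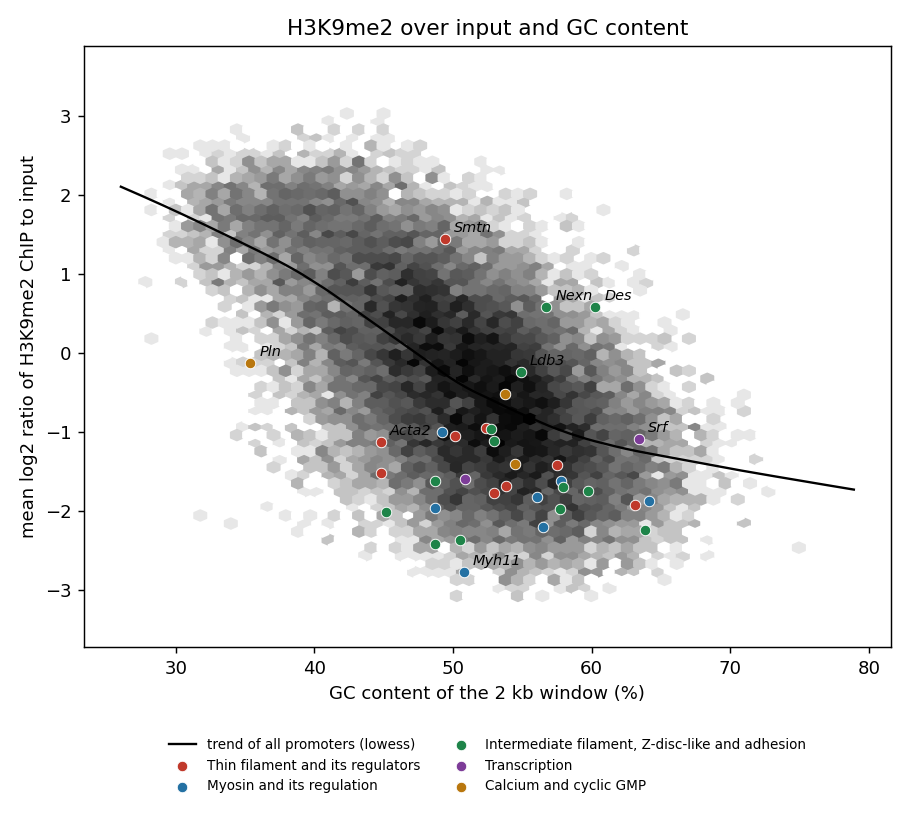
Mean log2 ratio of H3K9me2 ChIP to input (y axis) against the GC content in percent of the window of 1 kb either side of the gene start (x axis), with all promoters that have a placed window as grey hexagons (darker for more promoters, log scale), the lowess trend as a line, and the 34 contractile promoters as points coloured by role. Most points lie under the line, and Smtn, Des and Nexn lie well above it.

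An exact CArG box lay within 1 kb of the gene start at 15 of the 34 genes (44.1%), compared with 8.83% of all windows. The median percentile was 10.5 for the 15 with a box and 18.1 for the 19 without, and the difference was not tested. The lowest promoter, Myh11, has a box in its window, whereas Smtn, Des and Nexn have none, and neither have Pdlim3 and Itga8.

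Other gene lists place the contractile promoters among related genes. Calls are by the same edgeR test, which put 17.0% of all promoters below input and 18.6% above, or 8.30% and 15.8% with the block. Transcription factors and signals that act with or against SRF had a median percentile of 28.2 over 16 promoters, of which 4 were below input (2 with the block) and 0 above. Their pooled ratio relative to other promoters, 0.403, was close to the 0.409 of the contractile promoters, which was 0.316 without Smtn. Signalling and calcium handling genes of contraction had a median percentile of 33.2 over 26 promoters and a pooled ratio of 0.551, with 7 below (2 with the block) and 0 above. Skeletal and cardiac muscle genes, the counterparts of the contractile genes in striated muscle, had a median percentile of 54.0 over 40 promoters and a pooled ratio of 0.974, with 2 below (0 with the block) and 3 above in both fits. The 2 below were Myl3 and Myl4, which encode myosin light chains of striated muscle. Differences between the lists were not tested.

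Markers of the cell types of the layers that had been dissected away, and of leukocytes, were ranked too. Endothelial promoters had a median percentile of 47.4 over 14 promoters, with 3 below and 2 above (0 and 1 with the block). Fibroblast promoters had a median percentile of 45.4 over 10, with 2 below (0 with the block) and 0 above. Leukocyte promoters had a median percentile of 73.9 over 14, with 2 below and 6 above (0 and 5 with the block). Pooled ratios relative to other promoters were 0.912, 0.794 and 1.61. Removal of the GC trend kept only promoters with a placed window. These were 14 of 16 in the SRF list, 24 of 26 in signalling and 13 of 14 in the leukocyte list. This step moved the medians to 44.1 for the SRF list, 49.7 for signalling, 54.8 for striated muscle, 57.9 for endothelial, 27.2 for fibroblast and 71.8 for leukocyte genes, compared with 23.5 for the contractile promoters. After that step the fibroblast list was thus the nearest to the contractile promoters. The loci that the study used as controls were near either end of the contractile range, with a ratio of 0.0119 at Actb, at percentile 0.662, and of 0.455 at Magea2, at percentile 83.9. Actb had 1 ChIP read in all, and its interval from 0.00208 to 0.0680 overlapped those of many contractile promoters. Magea2 had 10 ChIP reads over 22 input reads and an interval from 0.219 to 0.944. It was not called above input, with an adjusted p of 0.170 by edgeR.

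**Figure D4:**
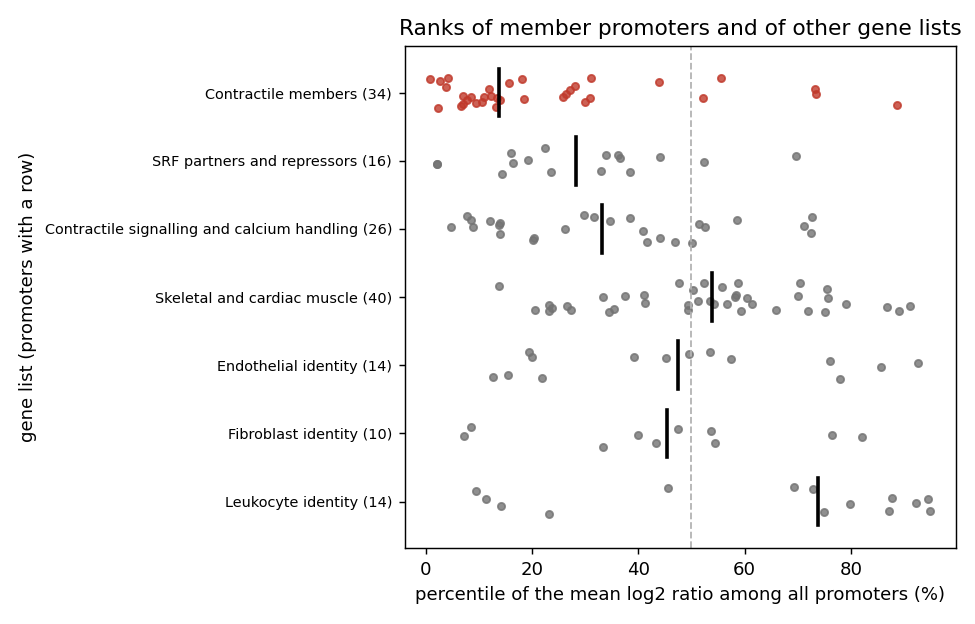
Percentile of the mean log2 ratio of H3K9me2 ChIP to input among all 26354 promoters (x axis) for each promoter of the contractile set and of 6 other gene lists (y axis, number of promoters in brackets), with a bar at the median of each list and a dashed line at percentile 50. The bars run from 13.7 for the contractile promoters to 73.9 for the leukocyte list.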

How the data were processed

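H3K9me2 ChIP and input libraries from 2 experiments were analysed. Per the submitters' processing notes and the paper's methods, paired-end reads from DNA SMART ChIP-seq libraries were trimmed with Trim Galore 0.4.2 and cutadapt 1.9.1 and aligned to GRCm38 with Bowtie2 2.2.7, and reads within 1 kb of each start site were counted in SeqMonk. The annotation release and any removal of duplicates are not given in the sources used here. The authors deposited raw counts per promoter and library, which were not normalized, their sums per group, and a ratio of ChIP to input. In the table this ratio equals the quotient of the sums, unscaled, at all 26354 promoters, and the lowest summed input is 21 reads, so the authors' minimum of 20 applies to the sum. Totals over the promoters were 162233 and 229605 reads for ChIP and 619100 and 1084349 for input in experiments v102 and v134, and mitochondrial promoters held 14.3% and 7.53% of the input reads. These totals are not library depths.

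Counts were tested with edgeR 4.0.16 (R 4.3.3, quasi-likelihood, TMM, Benjamini-Hochberg over all promoters, adjusted p under 0.05), 2 libraries against 2. The code was also run on simulated counts. Their spread was assumed and held no experiment effect, so that run says nothing about the spread of these libraries. SE is the log2 fold change over the square root of F. DESeq2 1.42.0 was an alternative. Nothing says that the experiments used separate animals, so p-values measure the spread between these libraries. Each ChIP has its own input per the paper's methods, and the pairing by experiment number rests on that (correlation of the ChIP and input differences between experiments 0.104 across promoters). Log2 ratios used a pseudocount of 1 read. Wilson intervals at 95% and the floor of 3 reads cover counting error only.

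Windows of 1 kb either side of the gene start (GENCODE M21, GRCm38.p6) gave GC content (lowess, fraction 0.3) and CArG boxes. Whether these are the starts of the authors' windows is not known. The RefSeq start was found for 28 of 34 genes and lay within 100 bases of the start used for 19 and within 1000 bases for all but 3 (Smtn, Flna and Mylk). Members, lists and alternatives were chosen with earlier results of these data known. Named were every member, the 8 markers and the 4 highest and 4 lowest members in full, with the called members and the control loci. Python 3.11.15, statsmodels 0.14.6 and matplotlib 3.10.9 were used.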

Additional observations from a re-analysis of the deposited data

How the results depend on the processing

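Percentages in brackets here are the shares of all promoters called. Those of the fits with 1 library left out are given in the Results. The count of contractile promoters below input, 18 of 34 (17.0%), was 6 (8.30%) with the replicate block, which takes up the pairing of ChIP and input. DESeq2 called 0 (0.102%), but left its adjusted p undefined at all but 1 of the 34. It was 21 with library totals, 19 of the 30 that pass edgeR's filterByExpr, 14 of the 29 with at least 50 summed input reads, 5 of the 22 with at least 20 reads in each input, 18 without mitochondrial promoters and 0 by DESeq2. Leaving out 1 library gave 1 to 15, the lone library of a group being assumed to vary like the other group. Smtn was the 1 promoter above input throughout, except without the ChIP library of v134 (0, so 0 to 1 when a library was left out). Of the 34 member results, 12 calls were lost with the block, which changed no other call. Some log2 fold changes not called as reported turned sign when a library was left out, from -7.39 to 0.47 at Actg2 (-7.39 was called, and rests on a lone ChIP library with no read), -0.60 to 0.23 at Pln, -1.44 to 0.17 at Pde5a and -1.28 to 0.65 at Ldb3 (0.01 as reported), which was also -0.025 with the block and -0.13 with library totals. The cause was not tested.

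The median percentile, 13.7, was 15.5 and 13.4 with pseudocounts of 0.5 and 5, 16.1 on summed reads, 16.2 and 14.9 with the stricter input minimums, 13.6 without mitochondrial promoters, 23.5 after removal of the GC trend (ranked among the 22299 placed windows), 19.1 in either experiment alone, and 10.9 for the 19 genes whose RefSeq start is near, an alternative added after the data were seen. The highest quartile held 3 promoters after removal of the GC trend and 2 in either experiment alone, in place of 1. The pooled ratio, 0.409, was 0.490 under the minimum of 20 reads per input, 0.366 without mitochondrial promoters and 0.360 to 0.457 by experiment. Without Smtn it was 0.316, which was the lowest of the values with 1 member left out. With a median of 4 and 5 ChIP reads at a promoter, values at single promoters rest on few reads.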
